A study of Mus musculus with 8 samples.

Results

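Complement genes of hepatic macrophages were followed across normal and steatotic livers and across loading with cholesterol crystals. The set held 9 genes, found by their symbols among the 55401 genes of the deposited count table: *C1qa*, *C1qb*, *C1qc*, *C3*, *C4b*, *Cfb*, *Cfp*, *C3ar1* and *C5ar1*. Poly(A) RNA had been sequenced from F4/80-positive cells, which were isolated from liver with magnetic columns, plated on collagen and cultured for 24 h in the presence of cholesterol crystals at 500 μg/ml (CC) or of the vehicle alone (Veh). Such crystals, solid cholesterol, are engulfed by macrophages and reach their lysosomes. Normal livers came from WT C57BL/6J mice on a standard diet. Steatotic livers came from MC4R-KO mice on the same background, which lack the melanocortin 4 receptor, eat excessively and become obese, and which had received a Western diet for 6 to 10 wk. Genotype and diet therefore changed together and cannot be told apart, and the number of animals behind a library was not given in the sources used here. The methods describe male mice that were 8 wk old when the Western diet began, in a sentence on a longer feeding period, and do not repeat age or sex for the macrophage isolation. Each of the 4 groups (normal with Veh, normal with CC, steatotic with Veh, steatotic with CC) had 2 libraries. Nothing said that the 2 libraries of a group came from separate animals or cultures, so that the p-values measure the spread between libraries, which may be technical.

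Complement is a set of plasma and membrane proteins that tag particles and dying cells for uptake. C1q, built from the products of *C1qa*, *C1qb* and *C1qc*, recognizes antibody complexes and dead cells and starts the classical pathway. C4 and C2 then form the enzyme that cleaves C3, the central component, whose fragments mark the target (C3b) or attract and activate leukocytes (C3a). Factor B, from *Cfb*, forms the corresponding enzyme of the alternative pathway, which properdin, from *Cfp*, stabilizes. *C3ar1* and *C5ar1* encode the receptors of C3a and C5a. Hepatocytes make most complement proteins of the plasma, whereas C1q and properdin come mainly from myeloid cells.

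The 3 C1q genes stood side by side on chromosome 4 of mouse GRCm38 (mm10), all on the minus strand within 18.7 kb. They were *C1qb* (ENSMUSG00000036905.8, from 136880129 to 136886187), *C1qc* (ENSMUSG00000036896.5, from 136889804 to 136893065) and *C1qa* (ENSMUSG00000036887.5, from 136895917 to 136898803). *C4b* (ENSMUSG00000073418.4, from 34728380 to 34743882) and *Cfb* (ENSMUSG00000090231.10, from 34856374 to 34862518) lay on chromosome 17 in the complement cluster of the major histocompatibility complex, and *C3* (ENSMUSG00000024164.15, from 57203970 to 57228136) lay elsewhere on that chromosome. *Cfp* (ENSMUSG00000001128.7, from 20925454 to 20931555) was on chromosome X, *C3ar1* (ENSMUSG00000040552.8, from 122847138 to 122856161) on chromosome 6 and *C5ar1* (ENSMUSG00000049130.6, from 16246743 to 16259540) on chromosome 7. All 9 are protein-coding and on the minus strand. The readthrough gene *Gm20547* overlaps *Cfb* on the same strand, but it had at most 1.86% of the *Cfb* counts in any library. *C4a*, a close copy of *C4b*, had 1.06% to 3.37% of the counts of both together, and the division of reads between these copies is uncertain.

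Promoter sequence is shown for *C1qb* and *C1qc*, which fell with CC, and for *C3*, which rose with CC. RefSeq promoters of GRCm38.p6 were available for 6 of the 9 genes, and *C1qa*, *C4b* and *Cfb* were not among them. The lines run 5′ to 3′ on the minus strand and end at the base before the RefSeq start, except that of *C1qc*, which ends at the base before the first exon of GENCODE. Capitals mark matches, on either strand, to the PU.1 core GAGGAA, the C/EBP core TTGCNNAA, the NF-κB outline (GGG and CC with 5 bases between) or the MAF core TGCTGA.
C1qb promoter, chr4:136886201-136886450: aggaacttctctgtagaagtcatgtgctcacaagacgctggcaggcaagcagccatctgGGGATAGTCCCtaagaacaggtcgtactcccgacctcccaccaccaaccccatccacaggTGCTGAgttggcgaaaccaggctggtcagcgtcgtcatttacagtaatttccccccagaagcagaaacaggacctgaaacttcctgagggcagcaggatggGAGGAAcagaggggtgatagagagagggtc
C1qc promoter, chr4:136893066-136893164: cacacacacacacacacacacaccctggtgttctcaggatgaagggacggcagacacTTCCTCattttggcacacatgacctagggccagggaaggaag
C3 promoter, chr17:57228137-57228386: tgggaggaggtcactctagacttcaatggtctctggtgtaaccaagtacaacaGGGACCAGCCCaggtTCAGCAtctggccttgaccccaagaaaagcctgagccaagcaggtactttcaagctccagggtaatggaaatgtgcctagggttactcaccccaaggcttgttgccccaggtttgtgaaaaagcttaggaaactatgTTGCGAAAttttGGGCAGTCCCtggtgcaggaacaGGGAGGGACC
The 250 bases before the start held the PU.1 core once in *C1qb*, beginning at -30, and once in *C1qc*, on the opposite strand at -193. *C3* had none, and 23.3% of 32851 promoter windows of this length had at least 1. *C3* held the C/EBP core at -45, as did 9.56% of windows, and *C1qb* and *C1qc* did not. The NF-κB outline was matched in all 3 (in *C1qc* between the printed part and the start), but also in 45.8% of windows. The MAF core was found in *C1qb* and *C3* and in 16.1% of windows. Neither the AP-1 site TGANTCA (6.75% of windows) nor the interferon-stimulated element (GAAA repeated with 2 bases between, 2.98%) was found in these 3 windows, and the former occurred at -22 in *C3ar1*. These are matches of letters only.

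Some values of the whole series bear on the labels and on other cells. *Mc4r* had 0 counts in each library labelled normal and 22 to 72 counts in each labelled steatotic, the opposite of what the genotypes would give if the altered allele made no reads, so every direction between the livers rests on the labels, and normal and steatotic are used here as the names of the labels. Total counts were 58668655 to 74529462 per library, and CPM values (counts scaled to a common library size) are relative to these totals. The 6 macrophage markers summed to 15169 to 15618 CPM (normal, Veh), 12146 to 12311 CPM (normal, CC), 10907 to 11086 CPM (steatotic, Veh) and 9482 to 10294 CPM (steatotic, CC). Of these, *Adgre1* (F4/80) and *Fcgr1* were higher with the label steatotic at Veh (log2 fold change 0.74 and 1.20), as was *Mertk* (0.22), *Lyz2* and *Cd68* were lower (-1.16 and -0.74), and *Csf1r* did not pass the test (0.08). The summed CPM of 16 hepatocyte markers was 164 to 171 (normal, Veh), 129.8 to 146 (normal, CC), 108 to 122 (steatotic, Veh) and 57.3 to 64.9 (steatotic, CC). *Trf*, the transferrin gene, singled out after its values were seen, made up most of the sum with the label steatotic, and the other 15 markers summed to 68.4 to 70.6, 60.6 to 72.0, 4.34 to 4.95 and 11.3 to 12.2 CPM in the same order. *Alb*, the albumin gene, was at 49.4 and 48.1 CPM with the label normal and Veh and at 1.92 and 1.24 CPM with the label steatotic and Veh. At Veh, 6 monocyte markers summed to 11.4 to 11.6 CPM with the label normal and 119.9 to 125 CPM with the label steatotic, and 6 T or natural killer cell markers to 0.861 to 0.935 and 10.7 to 12.4 CPM. The corresponding sums were 138 to 143 and 238 to 242 CPM for 6 endothelial markers and 3056 to 3118 and 4456 to 4498 CPM for 7 Kupffer cell markers. With CC the Kupffer cell sum was 2396 to 2603 CPM (normal) and 2934 to 3454 CPM (steatotic). The sums at Veh with the label normal and with the label steatotic were 2.48 to 2.66 and 2.59 to 2.95 CPM for 5 B cell markers, 9.08 to 9.94 and 4.43 to 5.50 CPM for 5 neutrophil markers, and 5.21 to 5.44 and 9.49 to 9.67 CPM for 6 dendritic cell markers. Of 6 stellate cell or fibroblast markers only *Dcn* passed the filter, at 2.14 and 2.07 CPM (normal, Veh), 7.002 and 5.69 CPM (normal, CC), 20.8 and 17.4 CPM (steatotic, Veh) and 135 and 108 CPM (steatotic, CC). In bulk RNA, fewer cells of a type and less RNA per cell cannot be told apart.

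All 9 genes passed the filter of at least 0.5 CPM in at least 1 library and ranked between 47 (*C3ar1*) and 585 (*C5ar1*) of 15202 genes by mean CPM. Their counts ranged from 6314 to 175780 per library. Per kilobase of exon, *C1qb* was highest in normal with Veh with 973 CPM per kb, followed by *C1qa* with 830.0. *C1qc* (372 CPM per kb), *Cfp* (353), *C3ar1* (339) and *Cfb* (308) formed a middle range. *C5ar1* was at 116 CPM per kb, and *C3* and *C4b* were lowest at 44.9 and 38.5. The 3 C1q genes were thus above *C3* and *C4b* on this scale. In steatotic with Veh, *C1qa* and *C1qb* were at 2113 and 2123 CPM per kb and *C4b* (117) was above *C3* (63.8).

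**Figure D1:**
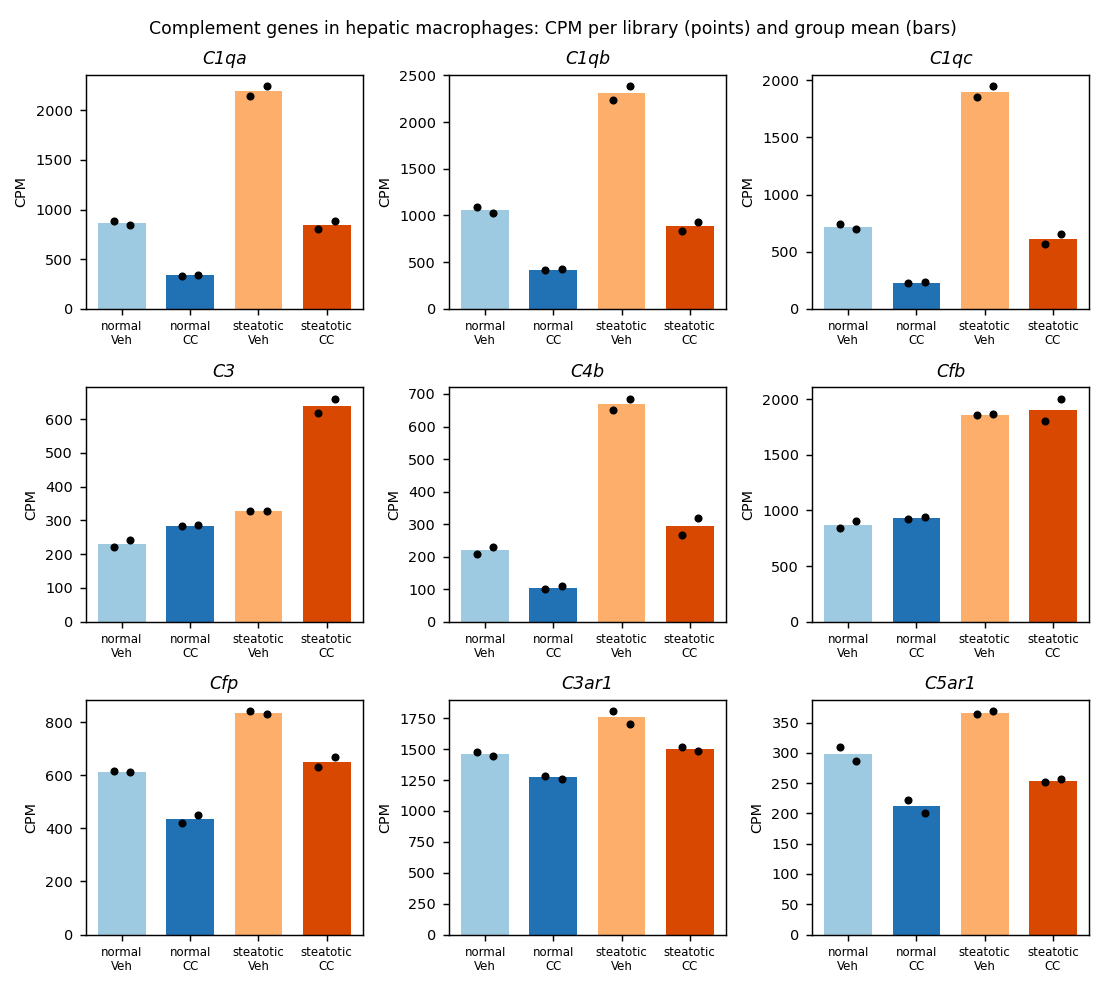
CPM (y axis from 0) of the 9 complement genes in each of the 8 libraries (points) with the mean of each group of 2 (bars), by liver label and treatment. *C1qa*, *C1qb*, *C1qc* and *C4b* are lowest in normal with CC and highest in steatotic with Veh, *C3* is highest in steatotic with CC, and *Cfb* is higher in all 4 libraries labelled steatotic.

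The first comparison asked how macrophages labelled steatotic differed from those labelled normal without crystals. All 9 genes were higher with the label steatotic at Veh, by 1.24-fold (*C3ar1*) to 3.15-fold (*C4b*). Among all genes tested, 30.7% passed an adjusted p of 0.05, 16.4% higher and 14.3% lower (edgeR quasi-likelihood test with Benjamini-Hochberg adjustment over 15202 genes, as for all adjusted p-values here). More than 2-fold differences were called for 5 of the 9 genes and for 9.12% of all genes. The median log2 fold change was 1.14 over the 9 genes and -0.01 over all genes. The 9 genes were chosen with earlier results of these data known, and all were among the 585 highest genes by mean CPM. The shares over all genes, here and below, are therefore description only, and enrichment was not tested. In the same comparison 10 of 14 tested hepatocyte markers were lower and 0 higher, 5 of 6 monocyte markers, 6 of 6 T or natural killer cell markers and 4 of 5 tested endothelial markers were higher (1 was lower), and of 7 Kupffer cell markers 4 were higher and 3 lower. Of 6 macrophage markers 3 were higher and 2 lower. Their part in the differences of the complement genes was not tested.

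Each of the 3 C1q genes was more than 2-fold higher. *C1qa* had 885 and 842 CPM (normal, Veh), 334 and 344 CPM (normal, CC), 2148 and 2248 CPM (steatotic, Veh) and 799.7 and 882 CPM (steatotic, CC). Both libraries labelled steatotic with Veh were above all others, and the difference at Veh was 2.63-fold (log2 fold change 1.39, SE 0.0534, edgeR adjusted p = 2.05e-06). *C1qb* had 1087 and 1029 CPM (normal, Veh), 410.4 and 430.4 CPM (normal, CC), 2231 and 2389 CPM (steatotic, Veh) and 836 and 935 CPM (steatotic, CC). It too was highest in steatotic with Veh and lowest in normal with CC, with a 2.25-fold difference at Veh (log2 fold change 1.17, SE 0.0621, edgeR adjusted p = 1.03e-05). *C1qc* had 743 and 695 CPM (normal, Veh), 226 and 231 CPM (normal, CC), 1851 and 1953 CPM (steatotic, Veh) and 565 and 651 CPM (steatotic, CC). It showed the largest difference of the C1q genes at Veh, 2.73-fold (log2 fold change 1.45, SE 0.0696, edgeR adjusted p = 8.46e-06).

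Of the components downstream of C1q or in the alternative pathway, *C4b*, *Cfb* and *C3* were also higher, whereas *C2*, not a member, was lower (below). *C4b*, the mouse C4 gene, had 209 and 229 CPM (normal, Veh), 101 and 108 CPM (normal, CC), 650.3 and 686 CPM (steatotic, Veh) and 268 and 319 CPM (steatotic, CC). The libraries labelled steatotic lay above those labelled normal at either treatment, by 3.15-fold at Veh (log2 fold change 1.65, SE 0.0915, edgeR adjusted p = 2.64e-05). *Cfb* had 838 and 901 CPM (normal, Veh), 923 and 945 CPM (normal, CC), 1855 and 1864 CPM (steatotic, Veh) and 1803 and 2005 CPM (steatotic, CC). All 4 libraries labelled steatotic had at least 1803 CPM and all 4 labelled normal at most 944.5 CPM, with a 2.21-fold difference at Veh (log2 fold change 1.14, SE 0.0557, edgeR adjusted p = 6.34e-06). *C3* had 221 and 241 CPM (normal, Veh), 282 and 285 CPM (normal, CC), 328 and 328 CPM (steatotic, Veh) and 618 and 661 CPM (steatotic, CC). The 4 groups of *C3* did not overlap, and its difference at Veh was smaller, 1.46-fold (log2 fold change 0.55, SE 0.0503, edgeR adjusted p = 0.000142).

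Properdin and the anaphylatoxin receptors differed least. *Cfp* had 615 and 611 CPM (normal, Veh), 421 and 449 CPM (normal, CC), 839.9 and 832 CPM (steatotic, Veh) and 632 and 668 CPM (steatotic, CC). Its difference at Veh was 1.41-fold (log2 fold change 0.49, SE 0.0424, edgeR adjusted p = 0.000103). *C3ar1* had 1477 and 1445 CPM (normal, Veh), 1283 and 1260.1 CPM (normal, CC), 1806 and 1708 CPM (steatotic, Veh) and 1515 and 1487 CPM (steatotic, CC). The groups did not overlap, but they lay within a narrow range, with a 1.24-fold difference at Veh (log2 fold change 0.31, SE 0.0365, edgeR adjusted p = 0.000521). *C5ar1* had 310.2 and 286 CPM (normal, Veh), 222 and 201 CPM (normal, CC), 364 and 368 CPM (steatotic, Veh) and 252 and 256 CPM (steatotic, CC). It was 1.27-fold higher with the label steatotic at Veh (log2 fold change 0.34, SE 0.0576, edgeR adjusted p = 0.00331), and both groups with CC were below both groups with Veh.

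**Figure D2:**
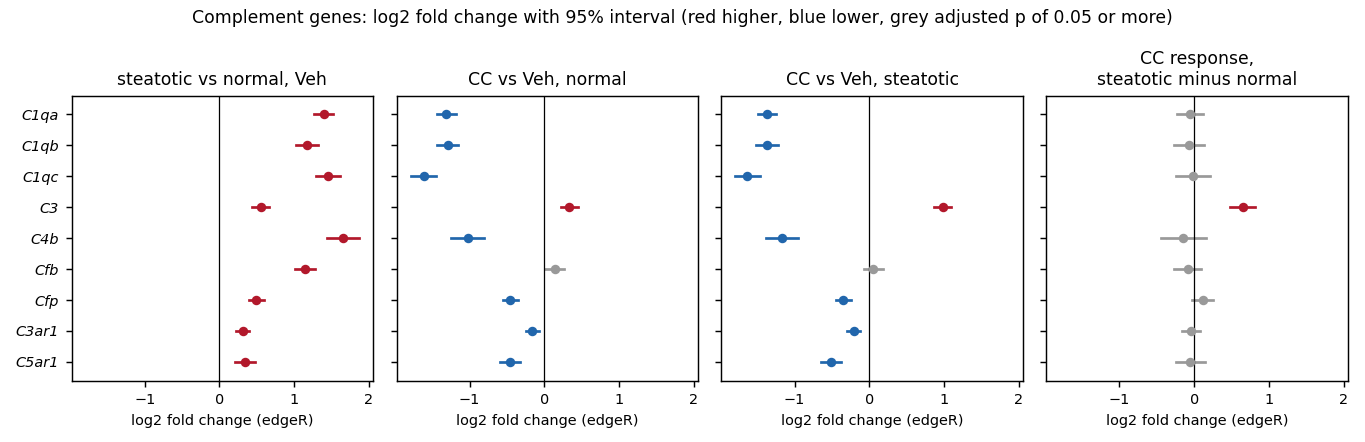
Log2 fold change (x axis) of each complement gene with its 95% interval from edgeR, for steatotic against normal at Veh, for CC against Veh with each label, and for the difference between these CC responses. All 9 genes are higher with the label steatotic at Veh, 7 are lower with CC under both labels, and only *C3* has a difference between responses past the threshold.

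The second comparison asked how these genes differed between CC and Veh with the label normal. The C1q genes and *C4b* fell by more than 2-fold, *Cfp* and both receptors fell by less, *C3* rose and *Cfb* did not pass the test. Thus 8 of 9 genes were called, 7 lower and 1 higher, where 11.8% of all genes tested were called, 5.54% lower and 6.27% higher. Changes over 2-fold were called for 4 members and 1.82% of all genes. *C1qa* fell 2.48-fold, from 863 ± 30.2 to 339 ± 7.47 CPM (SD, n = 2 each; log2 fold change -1.31, SE 0.0534, edgeR adjusted p = 2.71e-05). *C1qb* fell 2.45-fold (log2 fold change -1.30, SE 0.0624, edgeR adjusted p = 3.67e-05). *C1qc* fell 3.06-fold (log2 fold change -1.62, SE 0.0701, edgeR adjusted p = 3.22e-05), rank 135 from the lowest log2 fold change among 15202 genes. *C4b* fell 2.04-fold (log2 fold change -1.03, SE 0.0905, edgeR adjusted p = 0.000744), more than any other member outside C1q. *Cfp* and *C5ar1* fell by 0.46 each on the log2 scale (0.000545 and 0.00221 as edgeR adjusted p). *C3ar1* fell by 0.16 on the log2 scale (edgeR adjusted p = 0.027), a call that was lost when either library of normal with Veh or of normal with CC was left out (edgeR adjusted p = 0.073 to 0.142). *C3* rose from 231 ± 13.6 to 284 ± 2.13 CPM (SD, n = 2 each; log2 fold change 0.33, SE 0.0502, edgeR adjusted p = 0.00515). For *Cfb* the log2 fold change was 0.14 with a 95% interval of 0.01 to 0.27 (edgeR adjusted p = 0.165), although its values did not overlap between treatments. Kupffer cell markers moved with CC as well, 4 of 7 lower and 0 higher, and 5 of 6 macrophage markers were lower and 0 higher. *Dcn* was higher with CC (log2 fold change 1.63), as was *S100a8*, the only 1 of 5 neutrophil markers to pass the filter (0.66), and of 5 tested endothelial markers 1 was higher and 0 lower. The part of these markers in the changes of the complement genes was not tested.

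With the label steatotic, each called gene had the same direction as with the label normal. Again 8 of 9 genes were called, 7 lower and 1 higher, where 22.9% of all genes tested were called, 10.9% lower and 12% higher. Changes over 2-fold were called for 4 members and 5.05% of all genes. *C1qa* fell 2.58-fold, from 2198 ± 71.4 to 841 ± 58.1 CPM (SD, n = 2 each; log2 fold change -1.37, SE 0.0534, edgeR adjusted p = 3.5e-06). Its level with CC overlapped that of normal with Veh (885 and 842 CPM). *C1qb* fell 2.58-fold (log2 fold change -1.37, SE 0.0624, edgeR adjusted p = 7.69e-06) and *C1qc* 3.09-fold (log2 fold change -1.63, SE 0.0700, edgeR adjusted p = 7.69e-06). Both were then below the values of normal with Veh, a difference that was not tested. *C4b* fell 2.25-fold (log2 fold change -1.17, SE 0.0904, edgeR adjusted p = 0.000166) and stayed above the libraries labelled normal with Veh. *Cfp* fell by 0.35 and *C5ar1* by 0.51 on the log2 scale (edgeR adjusted p = 0.000865 and 0.00059). *C3ar1* fell by 0.21 on the log2 scale (edgeR adjusted p = 0.00494). *C3* rose 1.97-fold, from 328 ± 0.174 to 639 ± 30.3 CPM (SD, n = 2 each; log2 fold change 0.98, SE 0.0505, edgeR adjusted p = 1.25e-05). *Cfb* was at 1859.5 ± 6.53 and 1904 ± 143 CPM (SD, n = 2 each), and its log2 fold change of 0.05 (95% interval -0.08 to 0.18, edgeR adjusted p = 0.583) turned to -0.03 when replicate 2 of steatotic with CC was left out. Of the Kupffer cell markers 6 of 7 were lower and 1 higher with CC, and of the macrophage markers 4 of 6 were lower and 1 higher. *Dcn* (log2 fold change 2.69) and *S100a8* (1.97) were higher with CC, of 5 tested endothelial markers 3 were higher and 1 lower, and of 14 tested hepatocyte markers 1 was higher (*Hp*, 2.25) and 1 lower. Their part in the rise of *C3* and in the falls was not tested.

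The response itself was then compared between the labels by the interaction term of the same model. It differed for 1 of the 9 genes, *C3*, where 3.22% of all genes tested were called, 1.95% with a higher and 1.27% with a lower value under the label steatotic. No member, and 0.908% of all genes, also differed by more than 2-fold. *C3* rose more with the label steatotic by 0.65 on the log2 scale (95% interval 0.48 to 0.81, SE 0.0709, edgeR adjusted p = 0.00506), that is 1.26-fold with the label normal and 1.97-fold with the label steatotic. For the C1q genes, differences between the responses were small with intervals on both sides of 0: -0.23 to 0.12 for *C1qa*, -0.27 to 0.13 for *C1qb* and -0.24 to 0.21 for *C1qc* on the log2 scale. The interval of *C4b* was wider (-0.45 to 0.16), and those of *Cfb* (-0.27 to 0.09), *Cfp* (-0.03 to 0.25), *C3ar1* (-0.17 to 0.07) and *C5ar1* (-0.24 to 0.14) also held 0. A difference within these intervals was not detectable with 2 libraries a group.

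With CC present in both, all 9 genes were again higher with the label steatotic, where 28.8% of all genes tested were called, 15.9% higher and 12.9% lower, and 8.41% by more than 2-fold. These libraries are those of the CC responses above. The log2 fold changes were 1.51 for *C4b*, 1.44 for *C1qc*, 1.34 for *C1qa*, 1.20 for *C3*, 1.10 for *C1qb* and 1.05 for *Cfb*. They were smaller for *Cfp* (0.60), *C5ar1* (0.29) and *C3ar1* (0.27), with edgeR adjusted p-values up to 0.00788. *C3* was the member whose distance between the labels grew most with CC, from 1.46-fold at Veh to 2.29-fold. In this comparison 12 of 14 tested hepatocyte markers were lower and 1 higher. Higher were 5 of 6 monocyte markers, 6 of 6 T or natural killer cell markers and 3 of 5 tested endothelial markers, and 0 of these were lower. Of 7 Kupffer cell markers 4 were higher and 3 lower, and of 6 macrophage markers 3 were higher and 2 lower. The part of these cell markers was not tested.

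Proportions between members were examined as ratios of CPM within each library. The C1q protein holds its 3 chains in equal number. The ratios here compare RNA without correction for exon length (1040 bp in *C1qa*, 1088 bp in *C1qb*, 1931 bp in *C1qc*). They therefore do not measure proportions of chains. *C1qa* to *C1qb* was 0.814 and 0.818 in normal with Veh and 0.813 and 0.799 in normal with CC, against 0.963 and 0.941 in steatotic with Veh and 0.957 and 0.944 in steatotic with CC. All 4 libraries labelled steatotic lay above all 4 labelled normal. *C1qc* to *C1qb* was 0.683 and 0.675 (normal, Veh), 0.551 and 0.537 (normal, CC), 0.830 and 0.818 (steatotic, Veh) and 0.676 and 0.697 (steatotic, CC). With CC it was lower than with Veh under each label. *C3* to *C4b* was 1.06 and 1.05 in normal with Veh and 2.79 and 2.63 with CC, and 0.504 and 0.478 in steatotic with Veh and 2.31 and 2.07 with CC. *C3* was therefore below *C4b* in CPM in steatotic with Veh alone. The ratio of *C3ar1* to *C5ar1* lay between 4.64 and 6.27 and was higher with CC under each label. These ratios, with *Cfb* to *C2* (below) and *C1qa* to *C1qc*, which follows from the other C1q ratios, gave 12 differences between labels or treatments. Pairs of other genes were not tested for comparison. Of the 12 differences, 10 had the smallest p that the design allows (exact two-sided permutation within strata, p = 0.0556, 0.0667 after Benjamini-Hochberg adjustment), so that none could pass 0.05. The other two, the effect of CC on *C1qa* to *C1qb* and of the label on *C3ar1* to *C5ar1*, had p = 0.333 and 0.5 by the same exact permutation test.

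*Cfb* and *C2*, neighbours on chromosome 17 that encode the homologous proteases of the alternative and the classical pathway, went in opposite directions between the labels. *C2* (ENSMUSG00000024371.14, from 34862604 to 34898265) had 284 and 289 CPM (normal, Veh), 233 and 238 CPM (normal, CC), 178 and 179 CPM (steatotic, Veh) and 124 and 141 CPM (steatotic, CC). At Veh it was lower with the label steatotic (log2 fold change -0.64, SE 0.0584, edgeR adjusted p = 0.000144) where *Cfb* was higher. The ratio of *Cfb* to *C2* accordingly was 2.95 and 3.12 in normal with Veh and 10.4 and 10.4 in steatotic with Veh, and 3.96 and 3.97 and 14.6 and 14.2 with CC. *C2* also fell with CC with the label steatotic (log2 fold change -0.41, SE 0.0584, edgeR adjusted p = 0.00177), and with the label normal (log2 fold change -0.25, SE 0.0582, edgeR adjusted p = 0.0343) in a call lost when any 1 of 6 libraries was left out (edgeR adjusted p up to 0.155). *C4a* was at 6.01 and 4.29 CPM in normal with Veh and 22.7 and 17.8 CPM in steatotic with Veh (log2 fold change 2.02, SE 0.427, edgeR adjusted p = 0.017), in the direction of *C4b*, but the call was lost without replicate 1 or 2 of normal with Veh or replicate 1 of steatotic with Veh (edgeR adjusted p up to 0.0980).

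**Figure D3:**
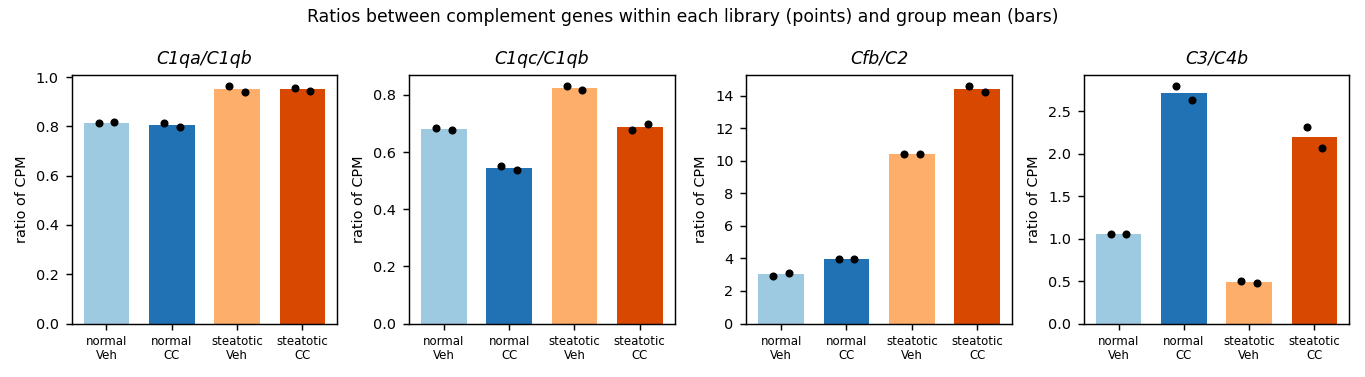
Ratio of CPM (y axis from 0) between 2 complement genes within each of the 8 libraries (points) with the mean of each group of 2 (bars). *C1qa* to *C1qb* is higher in all 4 libraries labelled steatotic, *C1qc* to *C1qb* is lower with CC under each label, *Cfb* to *C2* is highest in steatotic with CC, and *C3* to *C4b* rises with CC under each label.

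The rest of the pathway was taken from a list of 49 further complement genes, of which 29 passed the filter. Among the 20 that did not were the genes of the plasma lectins *Mbl1* and *Mbl2*, of C5 (*Hc*), of C7 and C8 (*C7*, *C8a*, *C8b*) and of factor D (*Cfd*), all at most 0.341 CPM. At Veh, 10 of the 29 were higher with the label steatotic and 7 lower, with a median log2 fold change of 0.20, where 30.7% of all genes were called. With CC, 5 were higher and 3 lower with the label normal (median -0.04, 11.8% of all genes called), and 2 higher and 7 lower with the label steatotic (median -0.35, 22.9% of all genes called). Over the 9 members these medians were 1.14, -0.46 and -0.51.

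Initiation genes split between the labels. *Fcna*, which encodes the lectin ficolin A of macrophages, was lower with the label steatotic at Veh (568 and 565 against 293 and 312 CPM; log2 fold change -0.86, SE 0.0572, edgeR adjusted p = 2.93e-05). *Colec12*, a scavenger receptor collectin, was also lower (116 and 117 against 35.6 and 36.8 CPM; log2 fold change -1.64, SE 0.0589, edgeR adjusted p = 1.65e-06). *C1ra*, a protease of the C1 complex, was higher (30.2 and 29.6 against 43.4 and 41.7 CPM; log2 fold change 0.55, SE 0.112, edgeR adjusted p = 0.00783), as was *Masp1*, a protease of the lectin pathway (log2 fold change 1.03, SE 0.137, edgeR adjusted p = 0.00102). So the C1q genes and *C1ra* were higher with the label steatotic, while *Fcna* was lower.

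Among regulators, *Cd55*, which encodes decay-accelerating factor, fell with CC in the libraries labelled steatotic (log2 fold change -1.26, SE 0.214, edgeR adjusted p = 0.00699, or 0.0512 when only the 4 libraries of that comparison were fitted). In those labelled normal its log2 fold change with CC was -0.70 (edgeR adjusted p = 0.0901), and the difference between these responses did not pass the test (edgeR adjusted p = 0.485). *Clu*, encoding clusterin, an inhibitor of the terminal pathway, rose with CC with the label normal (log2 fold change 0.68, SE 0.0722, edgeR adjusted p = 0.00101), whereas its log2 fold change with the label steatotic was 0.18 (edgeR adjusted p = 0.133). *Cd59b*, which encodes an inhibitor of the terminal pathway, was at 0 in both libraries of normal with Veh and at 0.556 and 0.612 CPM in steatotic with Veh, at least 3.33-fold higher against a floor of 3 fragments (12 counts) per library. *Cfi*, encoding the protease factor I, went the other way, with 0.510 and 0.634 CPM in normal with Veh and 0 and 0.0408 CPM in steatotic with Veh. Both genes lay near the filter. *Cfi* reached it only in normal with Veh and *Cd59b* only in libraries labelled steatotic, so each was tested only through the label where it was high.

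Receptors for bound complement differed by label and by CC. *Vsig4*, whose product CRIg on Kupffer cells binds C3b, fell with CC from 335 and 302 to 62.8 and 66.7 CPM with the label normal (log2 fold change -2.26, SE 0.0699, edgeR adjusted p = 1.29e-05) and from 569.9 and 605 to 82.1 and 89.5 CPM with the label steatotic (log2 fold change -2.76, SE 0.0711, edgeR adjusted p = 1.11e-06). At Veh it was higher with the label steatotic (log2 fold change 0.93, SE 0.0670, edgeR adjusted p = 4.3e-05), as were the C1q genes, and it is also 1 of the 7 Kupffer cell markers. *Itgb2*, the shared β chain of complement receptors 3 and 4, was higher with the label steatotic at Veh, at 1090.2 ± 24.6 against 932 ± 22.5 CPM (SD, n = 2 each; log2 fold change 0.27, SE 0.0485, edgeR adjusted p = 0.00436). *Itgax*, the α chain of complement receptor 4, was at 42.2 and 33.4 CPM in steatotic with Veh and 165 and 145 CPM with CC (log2 fold change 2.06, SE 0.117, edgeR adjusted p = 3.08e-05). With the label normal its log2 fold change with CC was 0.46 (edgeR adjusted p = 0.0447), a call lost without any 1 of the 4 libraries compared. *Itgam*, the α chain of complement receptor 3, had 176 and 105 CPM in normal with Veh and 379 and 384 CPM in steatotic with Veh (log2 fold change 1.49, SE 0.313, edgeR adjusted p = 0.0245), a call lost when any 1 of 5 libraries was left out and under 3 of 8 other settings, the replicate block among them (edgeR adjusted p up to 0.0938). *Cd93*, an endothelial and myeloid lectin-like receptor, was higher with the label steatotic at Veh (67.2 and 67.2 against 198 and 205 CPM; log2 fold change 1.63, SE 0.0433, edgeR adjusted p = 5.77e-07), beside the higher endothelial marker sum, whose part was not tested. Of proteins that bind C1q, *Calr* (calreticulin) was lower with the label steatotic at Veh (log2 fold change -0.44, SE 0.0334, edgeR adjusted p = 5.48e-05), as was *C1qbp* (log2 fold change -0.68, SE 0.0682, edgeR adjusted p = 0.000225), and neither passed the test for CC under either label. *Lrp1*, on the same list of receptors, went the other way at Veh (log2 fold change 0.31, edgeR adjusted p = 0.0255). Its call was kept under 6 of 8 other settings, and not in every fit with a library left out.

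**Figure D4:**
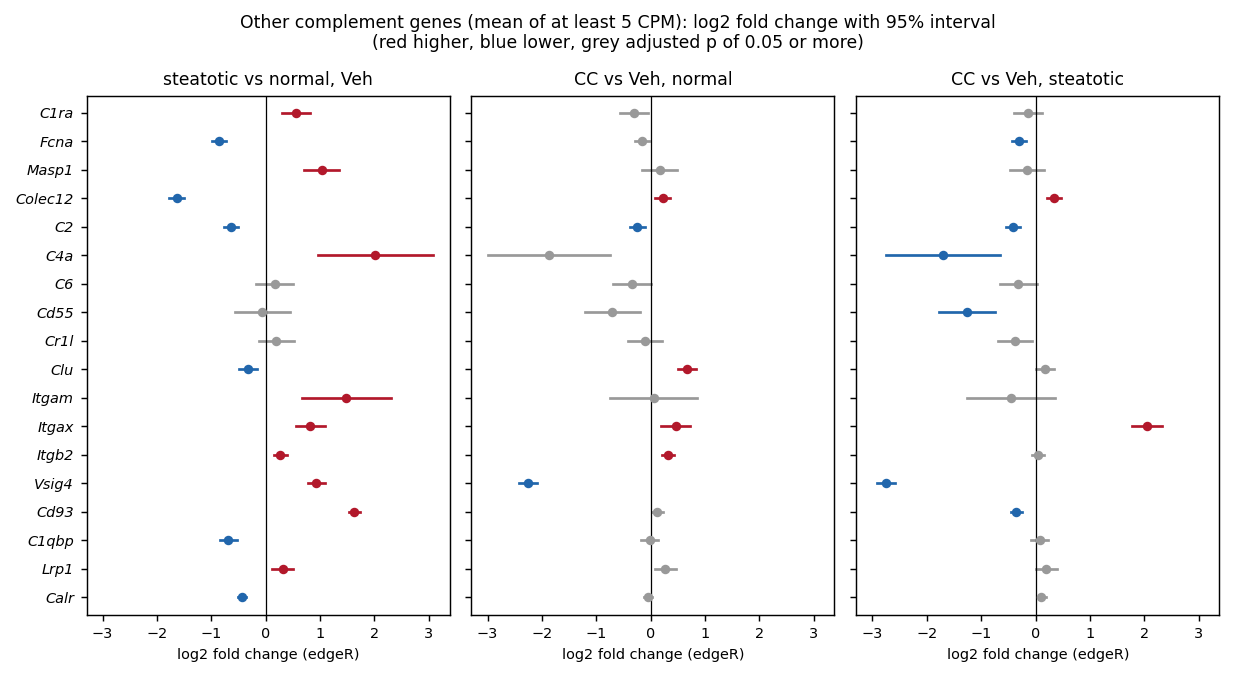
Log2 fold change (x axis) with 95% interval from edgeR for 18 other complement genes with a mean of at least 5 CPM, in 3 comparisons. *Vsig4* falls with CC under both labels, *Itgax* rises with the label steatotic, and *C2*, *Fcna* and *Colec12* are lower with the label steatotic at Veh.

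The genes whose log2 CPM followed each member most closely over the 8 libraries were taken from 9012 candidates with a mean log2 CPM above 3, by Pearson correlation. The 8 libraries form 4 groups, so these values describe a shared order of groups. For *C1qa* they included *Dck* (r = 0.998) and *Tlr8* (r = 0.997), and for *C4b* they were *Clec4a3* (r = 0.998), *Samhd1* (r = 0.998) and *Gm12250* (r = 0.997). For *C3* they were *Mmp14* (r = 0.995), *Fpr1* (r = 0.993) and *Ikbke* (r = 0.993), which like *C3* were highest in steatotic with CC. For *Cfb* they were *Tbc1d23* (r = 0.998), *Treml2* (r = 0.998) and *H2-T10* (r = 0.998), and for *Cfp* *Neurl3* (r = 0.997), *Naaa* (r = 0.997) and *P2ry13* (r = 0.995). For *C3ar1* they were *Cdc42* (r = 0.996), *Ids* (r = 0.994) and *Ulk1* (r = 0.993), and for *C5ar1* *Ogfrl1* (r = 0.991), *Zfp710* (r = 0.991) and *Dpysl2* (r = 0.989). Among the members, *C1qb* and *C1qc* were most alike (r = 0.999), while *C3* had r = 0.117 with *C1qa* and r = 0.788 with *Cfb*.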

How the data were processed

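Paired-end reads of 150 bp were processed by the authors with fastp (trimming), HISAT2 (alignment, mm10) and StringTie (quantification), in versions not given in the sources used here. They deposited estimated counts (expected counts) per gene, unscaled, in 1 column for each of the 8 libraries. Counts were whole numbers and were used as deposited. Small values that were multiples of 4 were in excess (35.0% to 36.5% of values from 1 to 20), so 1 fragment may stand for about 4 counts, and counts divided by 4 were an alternative. A floor of 3 such fragments (12 counts) equals 0.161 to 0.205 CPM, for counting error only. Strand use in counting was not given in the sources used here.

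A gene was tested if any library reached 0.5 CPM, which kept 15202 of 28711 genes with counts, by edgeR 4.0.16 in R 4.3.3 (TMM, glmQLFit with robust estimation, glmQLFTest, 4 group means, no covariate, Benjamini-Hochberg adjustment over all genes tested in each contrast). SE is the log2 fold change divided by the square root of F, and intervals are 95%. Positions and exon lengths came from GENCODE M21 (GRCm38), which held 15181 of the tested genes, and promoters from RefSeq (GRCm38.p6). Steps were checked on simulated counts with known changes.

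Genes named were the 9 members, tested genes of the complement list, the 3 genes closest to each of 7 members, *Mc4r*, copies or overlapping genes, and cell markers, except that 2 genes named by this rule are not reported here. *Mbl1*, *Mbl2*, *Hc*, *C7*, *C8a*, *C8b* and *Cfd* were named though not tested. Members and lists were chosen with earlier results of these data known. Alternatives were DESeq2 1.42.0, its size factors, library size only, 2 other filters, counts divided by 4, the replicate number as a block, 4 libraries alone, a 2-fold requirement, an adjusted p under 0.1, and each library left out.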

Additional observations from a re-analysis of the deposited data

Results flagged for a closer look

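The CC responses of 6 of the 38 complement genes tested differed between the labels by the interaction term of the edgeR model, where 3.22% of all genes did. *C3* rose more with the label steatotic, by 0.65 on the log2 scale (edgeR adjusted p = 0.00506), and its call held when any single library was left out (0.57 to 0.71 over the alternatives, edgeR adjusted p at most 0.0248). *Itgax* rose more with the label steatotic, by 1.59 (edgeR adjusted p = 0.00497). The difference for *Cd93* was -0.48 (edgeR adjusted p = 0.0067), from log2 fold changes of 0.13 with the label normal and -0.36 with the label steatotic. For *Vsig4* it was -0.50 (edgeR adjusted p = 0.0367, or up to 0.121 over the alternatives) and for *Clu* -0.50 (edgeR adjusted p = 0.0467, or up to 0.150). For *Cd59b* the fitted difference of -7.46 (edgeR adjusted p = 0.0406) rests on 0 counts in both libraries of normal with Veh and depends on the prior count. *Cd59b* reached the filter only in libraries labelled steatotic, so its place among the 6 genes is not independent of the label. The call of *Cd59b* was lost whenever 1 library was left out. Its rise with CC with the label normal, to 0.304 and 0.205 CPM, was at least 1.45-fold against a floor of 3 fragments (12 counts) per library. No group had the 4 libraries needed to test for a library that stands apart.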

How the results depend on the processing

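Over 18 alternatives, 772 of 801 results for single members kept direction and side of the threshold. With a 2-fold change required as well as the adjusted p, 16 calls of members were lost, so that 5 of 9 members were called for the labels at Veh, 4 for CC with the label normal, 4 for CC with the label steatotic and 0 for the difference between responses, where no member reached 2-fold at any p and 1 was called by edgeR and 1 by DESeq2 without this requirement. Under the same requirement, the genes called were 1386, 277, 767, 138 and 1278 (labels at Veh, CC normal, CC steatotic, difference, labels with CC), and the other complement genes called 7, 3, 5, 2 and 7. The 4 further losses were those of *C3ar1* for CC with the label normal. The difference between responses was called for 737 genes by DESeq2 and for 777 genes at an adjusted p under 0.1, against 490. Signs turned for values near 0: *C1qc* in the difference between responses was 0.00618 with library size only. With 1 library left out, the remaining one was assumed to vary like the other groups. The difference between responses then ranged from -0.13 to 0.0102 for *C1qa*, from -0.15 to 0.00460 for *C1qb*, from -0.12 to 0.0837 for *C1qc* and from -0.12 to 0.0219 for *C5ar1*, and the CC effect on *Cfb* with the label steatotic from -0.0255 to 0.12. Genes called with 1 library left out ranged from 1014 (without replicate 1 of normal with CC) to 1761 for CC with the label normal, against 1795, and from 296 (without replicate 2 of steatotic with Veh) to 424 for the difference between responses. Other complement genes called ranged from 5 to 11 for CC with the label normal, against 8, and from 2 to 3 for the difference between responses, against 5. Members called stayed at 9, 8 and 9 in the comparisons of labels at Veh, CC with the label steatotic and labels with CC, and at 7 to 8 for CC with the label normal. Deviations of replicate 1 from its group mean correlated between groups by -0.03 to 0.04 over 9021 genes. These values gave no sign of pairing by replicate number. Shared animals would leave no trace in them if the libraries of a group were technical, so pairing remains unknown. With the replicate number as a block, 2 other complement genes were called for the difference between responses, and the number of members called was the same in all 5 comparisons. Causes of these changes were not tested. Depth did not limit the members, all at 6314 or more counts, but *Cd59b* and *Cfi* lay near the filter.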
